A study of Mus musculus with 12 samples.

Results

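Interferon-stimulated genes are the genes that cells switch on after an interferon binds its receptor at the cell surface. The receptor activates JAK kinases and STAT proteins, and STAT2 with IRF9 then binds a GAAA-rich element in the promoters of these genes. Their products sense foreign nucleic acid, block steps of viral replication, cut and load peptides for antigen presentation, or dampen the response. In the injured heart the response is best known from macrophages that take up DNA of dying cells. The group described here holds 39 such genes. They were chosen by symbol, with earlier results of these data known. All 39 were found among the 38293 gene identifiers of the deposited counts.

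RNA was sequenced from the hearts of 12 mice, 3 in each of 4 groups, 1 library per mouse. The WT sham mice were C57Bl/6J mice after sham surgery, and the WT IR mice were C57Bl/6J mice 14 days after ischaemia-reperfusion (IR) injury, made by tying off and then reopening the left anterior descending coronary artery. The Zeb2 groups are also labelled C57Bl/6J. The Zeb2 WT IR mice were wild-type littermates of the transgenic mice, and the Zeb2 cTg IR mice carried an αMHC-Cre transgene with Rosa26-lslZeb2 on both alleles, each 14 days after IR, so that Zeb2 should be overexpressed only in cardiomyocytes, where the Myh6 promoter drives the Cre. The libraries of this last group are called cTg-labelled. The methods give an age of 8 to 9 weeks, and name male mice in one place and both sexes in another. Neither comparison has an interferon-treated group, and the Zeb2 comparison has no sham group here. The labels name the left ventricle, the deposited design the infarct with its border zone, and the methods the remote zone, so the distance of the tissue from the infarct is uncertain.

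The 2 tables, 1 with the WT libraries and 1 with the Zeb2 libraries, were normalised separately, and levels are given as CPM, counts scaled to a library total of 1000000 after TMM adjustment within a table. Levels from the tables are set side by side below without a test between them. The libraries held 20215781 to 36816818 counts, of which 5706340 to 11618213 fell outside the mitochondrial genome. Cardiomyocyte markers summed to between 46860 and 70544 CPM per library, and all 12 of them were detected.

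The sequences show what several members have in common before any measurement. A motif of GAAA, any 2 bases and GAAA again, the core of the interferon-stimulated response element, was searched on both strands in windows from 250 bases before to 50 bases after each transcription start of RefSeq (build GRCm38.p6). A window was found for 29 of the 39 members, and 16 of these (55.2%) held the motif, against 3.99% of the 27025 genes with a window. The stretches of 30 bases shown next come from members that the results below turn on, each read on the strand that spells the motif, with 1 match in capitals. Matches that overlap it are left in lower case: the Isg15 window holds 3 overlapping matches and that of Bst2 2. The Ddx60 window holds 2 matches that do not overlap, of which 1 is shown. They belong to Ifit3 and its near copy Ifit3b, to Rsad2 and Gbp2, which were higher in WT IR, to Isg15, the namesake of the group, and to Ddx60 and Bst2, which had among the smallest p-values in the Zeb2 comparison.
Ifit3 (chr19:34583363-34583392): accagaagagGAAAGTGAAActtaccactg
Ifit3 (chr19:34583397-34583426): gaggaaagtaGAAACTGAAAcagacttaaa
Ifit3b (chr19:34607759-34607788): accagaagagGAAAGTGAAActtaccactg
Ifit3b (chr19:34607793-34607822): gaggaaagtaGAAACTGAAAcagacttaaa
Rsad2 (chr12:26456553-26456582): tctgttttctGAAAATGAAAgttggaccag
Gbp2 (chr3:142620594-142620623): ttaagacagtGAAAGTGAAActaaaagagt
Isg15 (chr4:156200871-156200900): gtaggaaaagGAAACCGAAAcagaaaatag
Ddx60 (chr8:61928024-61928053): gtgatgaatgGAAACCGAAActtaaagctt
Bst2 (chr8:71537583-71537612): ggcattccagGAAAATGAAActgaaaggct

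Rsad2 and Ddx60 are shown on the plus strand of the chromosome and the others on the minus strand. The pairs of stretches at Ifit3 and Ifit3b are identical, and so are 41.1% of the 75-base stretches of the longest Ifit3 transcript, which also occur in Ifit3b. The counts of these neighbours are therefore uncertain to that extent, since reads that match both genes cannot be told apart. The Gbp2 stretch lies before the RefSeq start but reaches past the start of the longer GENCODE gene model. Among the other members that were higher in WT IR, the windows of Ifit2, Psmb9 and Tap1 did not hold these letters, and Ifi27 and Ifi27l2a had no window in the table. A match describes the sequence and does not show that a factor binds there.

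The comparison of WT IR with WT sham asks how injury alters cardiac gene expression. All 39 members passed the filter on low counts and 8 were higher in WT IR, namely Ifit2, Ifi27l2a, Ifi27, Ifit3, Rsad2, Tap1, Gbp2 and Psmb9, with linear fold changes between 1.23 for Rsad2 and 2.26 for Ifit3. None was lower. The 8 genes are 20.5% of the members, against 11% of all 13756 genes tested that were called higher, 9.74% called lower and 20.8% called in either direction (edgeR quasi-likelihood test, adjusted p under 0.05 over all genes). The log2 fold change was above 0 in 37 of the 39 members, compared with 50.8% of all genes, and its median was 0.31 over the members and 0.0064 over all genes. At an unadjusted p under 0.05, 20 members were higher (51.3%, all genes 18.8%) and 0 lower (all genes 17.4%). In bulk tissue, fewer cells of a type and less RNA per cell cannot be told apart, and this holds for every value given here.

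**Figure D1:**
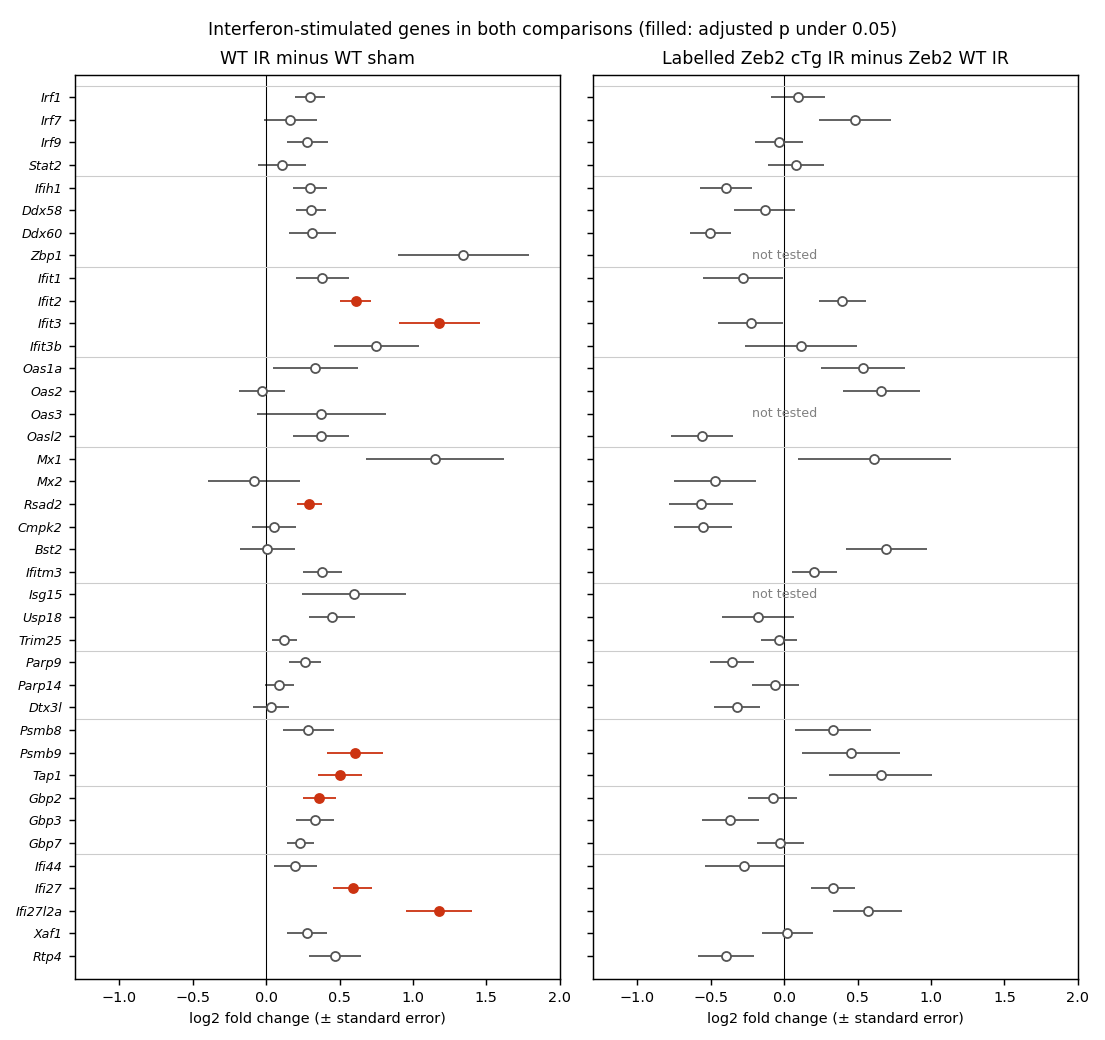
Log2 fold change of each of the 39 members with its standard error (horizontal axes) in WT IR against WT sham (left) and in the cTg-labelled libraries against Zeb2 WT IR (right), 3 mice per group; horizontal lines separate the roles, and filled points have an adjusted p under 0.05. In the left panel 37 of 39 points lie above 0 and 8 are filled, whereas in the right panel 16 of 36 lie above 0 and none is filled.

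None of the 4 transcription factors passed the test. Irf1, induced mainly by interferon gamma, had 7.68, 8.25 and 8.09 CPM in WT sham and 8.81, 10.7 and 9.92 CPM in WT IR. The groups did not overlap, but the test was not passed (log2 fold change 0.30, adjusted p = 0.0683). For Irf9, Irf7 and Stat2 the log2 fold changes were 0.28, 0.17 and 0.11, each with overlapping groups.

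The cytosolic sensors recognise viral or misplaced nucleic acid. The log2 fold change was 0.30 for Ifih1 (MDA5), 0.31 for Ddx58 (RIG-I) and 0.31 for the helicase Ddx60, and none passed. Zbp1, a sensor of Z-form nucleic acid linked to necroptosis, had the largest log2 fold change of all members, 1.34 with a standard error (SE) of 0.45. It had 0.416, 0.583 and 0.698 CPM in WT sham and 0.562, 1.88 and 1.79 CPM in WT IR. Only replicates 2 and 3 lay above the sham mice, and the adjusted p was 0.0609.

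The IFIT proteins bind foreign RNA and block its translation. Ifit2 (chr19:34550694-34576419) had 9.42, 9.38 and 8.03 CPM in WT sham and 12.4, 13.7 and 15.2 CPM in WT IR. Every injured mouse lay above every sham mouse, and the log2 fold change was 0.61 (SE 0.11, adjusted p = 0.00733), the smallest adjusted p of the group. Ifit3 (chr19:34583531-34588731), a partner of other IFIT proteins, had 3.14, 2.70 and 2.15 CPM in WT sham and 3.84, 5.98 and 8.69 CPM in WT IR. The groups did not overlap, though the injured mice spread widely, and the log2 fold change was 1.18 (SE 0.28, adjusted p = 0.0182). Ifit3b and Ifit1 had log2 fold changes of 0.75 and 0.38 and did not pass.

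The oligoadenylate synthetases make the messenger that activates RNase L. None of the 4 passed, with log2 fold changes of 0.38 for Oas3, 0.38 for Oasl2, 0.34 for Oas1a and -0.027 for Oas2. Oas1a shares 47.6% of the 75-base stretches of its longest transcript with Oas1g, so its counts are uncertain.

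Among the other antiviral effectors, Rsad2 (chr12:26442746-26456452), which encodes viperin, had 11.2, 12.6 and 11.7 CPM in WT sham and 14.0, 15.1 and 14.4 CPM in WT IR. The groups did not overlap and each was tight, with a log2 fold change of 0.30 (SE 0.08, adjusted p = 0.0340). Ifitm3, which hinders viral entry, did not overlap either, but its log2 fold change of 0.38 missed the threshold (adjusted p = 0.0677). Mx1, a dynamin-like GTPase that is non-functional in C57BL/6 mice, had 0.303, 0.521 and 0.698 CPM in WT sham and 0.625, 0.846 and 1.90 CPM in WT IR. Its log2 fold change of 1.15 had an SE of 0.47, and the groups overlapped (adjusted p = 0.109). The log2 fold changes of Mx2, a relative of Mx1 annotated as a polymorphic pseudogene, of Cmpk2, the neighbour of Rsad2 that encodes a mitochondrial nucleotide kinase, and of Bst2 (tetherin) were -0.083, 0.055 and 0.0078.

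Isg15, the ubiquitin-like modifier, and Usp18, the protease that removes it and restrains the receptor, had log2 fold changes of 0.60 and 0.45, and Trim25, a ubiquitin ligase, 0.12. The ADP-ribosyltransferases Parp9 and Parp14 had 0.26 and 0.09, and Dtx3l, the partner of Parp9, 0.030. None of these 6 passed. Parp9 and Dtx3l overlap on opposite strands, so their counts carry the same doubt as those of Psmb9 and Tap1 described next.

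Both genes of the major histocompatibility region that supply peptides for presentation and were higher lie next to each other on opposite strands. Psmb9 (chr17:34181987-34187764), a subunit of the immunoproteasome, had 1.21, 1.69 and 1.57 CPM in WT sham and 2.00, 2.33 and 2.5 CPM in WT IR. Tap1 (chr17:34187553-34197225), a subunit of the peptide transporter into the endoplasmic reticulum, had 3.78, 4.60 and 4.83 CPM in WT sham and 5.19, 6.45 and 7.05 CPM in WT IR. In both genes every injured mouse was above every sham mouse, with log2 fold changes of 0.61 (adjusted p = 0.0489) and 0.50 (adjusted p = 0.0406). Their annotated ends overlap, and the strand setting of the counting is not given in the sources used here. Psmb8, a further subunit of the immunoproteasome, had a log2 fold change of 0.29 with overlapping groups.

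The guanylate-binding proteins attack the membranes around intracellular pathogens. Gbp2 (chr3:142620602-142638008) had 9.04, 8.71 and 10.1 CPM in WT sham and 10.2, 12.7 and 12.7 CPM in WT IR, so that replicate 1 of the injured mice exceeded the highest sham mouse only slightly. Its log2 fold change was 0.36 (adjusted p = 0.0464). Gbp3 and Gbp7 had 0.33 and 0.23, and their groups did not overlap, but neither passed.

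Ifi27 and Ifi27l2a, small related proteins found at mitochondria and the nuclear envelope, are neighbours on chromosome 12. Ifi27l2a (chr12:103442167-103443680) had 6.28, 5.21 and 6.75 CPM in WT sham and 9.47, 12.9 and 18.7 CPM in WT IR. Ifi27 (chr12:103434211-103440239) had 4.99, 4.29 and 3.67 CPM in WT sham and 6.00, 6.77 and 6.90 CPM in WT IR. The groups did not overlap for either gene, with log2 fold changes of 1.18 for Ifi27l2a (adjusted p = 0.00931) and 0.59 for Ifi27 (adjusted p = 0.0160). Rtp4, a chaperone of receptors, Xaf1, which promotes apoptosis, and Ifi44 had 0.47, 0.28 and 0.20 and did not pass.

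**Figure D2:**
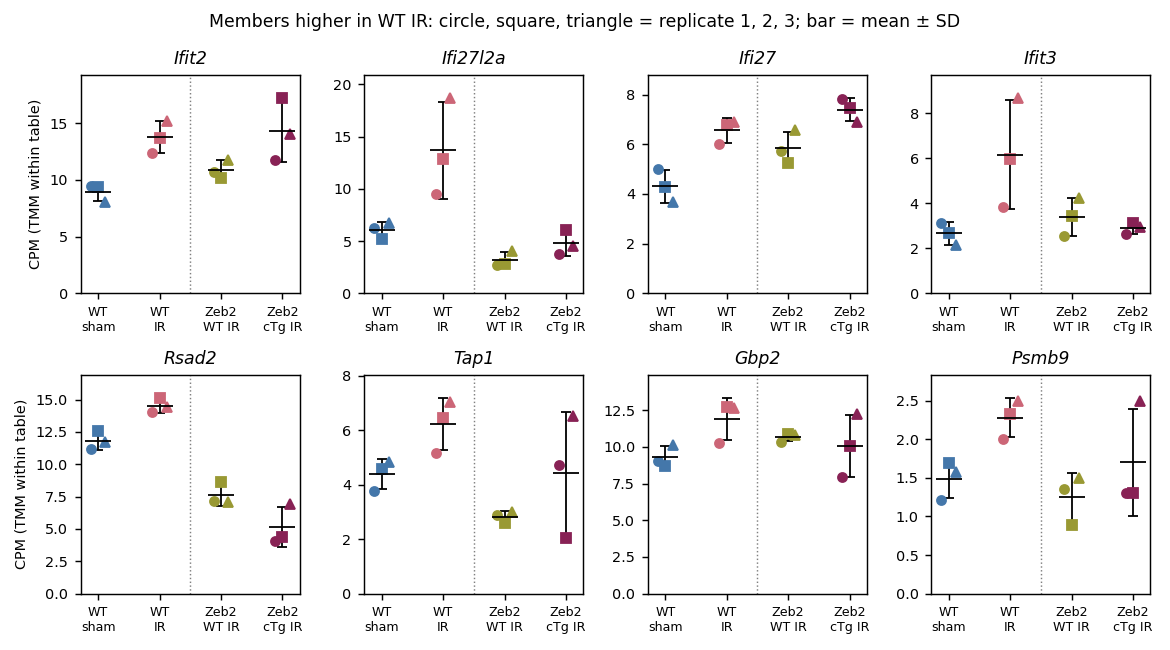
CPM per library (vertical axes, TMM-scaled within each table) of the 8 members higher in WT IR, in order of their p-value; points are mice, bars the group mean ± SD (n = 3), and the dotted line separates the tables, which were normalised separately. In all 8 panels the 3 WT IR mice lie above the 3 WT sham mice, and the group difference of the Zeb2 table to the right passed the test for none of them.

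The calls differed in how much they depended on single libraries. Ifit2 passed in all 6 fits that left out 1 library and in all 10 other fits. Ifi27l2a failed only without WT sham replicate 2 (adjusted p = 0.0642), while Ifit3 and Ifi27 failed without WT IR replicate 2, WT sham replicate 2 or WT sham replicate 3. Rsad2, Tap1, Gbp2 and Psmb9 each passed in 1 of the 6, the one without WT IR replicate 1, and with DESeq2 none of these 4 passed (8.86% of all genes higher). DESeq2 called 5 members in all, with Zbp1 as the fifth, and a fit without a filter on low counts called 13 (8.6% of all genes higher).

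Per length of transcript, the members ranged over more than 2 orders of magnitude in every group. On the scale of CPM per kilobase of the longest transcript, Ifi27l2a with 29.5 ± 10.1 (SD, n = 3) and Ifitm3 with 27.7 ± 5.40 were the highest in WT IR and did not differ beyond their spread. In WT sham Ifitm3 came first with 21.2 ± 0.179 and Ifi27l2a second with 13.1 ± 1.70. The next places were held by Ifi27 (6.71 ± 0.498) and Bst2 (5.48 ± 1.18) in WT IR and by Bst2 (5.39 ± 0.988) and Ifi27 (4.42 ± 0.679) in WT sham, where the last pair did not differ beyond their spread. Oas3 was the lowest in all 4 groups, with 0.0931 ± 0.0471 in WT IR and 0.0711 ± 0.00925 in WT sham.

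WT IR replicate 1 stood apart from the other injured mice. Of the 39 members, 38 (97.4%) were lowest in this library among the 3 of WT IR, compared with 39.1% of all genes tested, and none was highest in it. The median difference of its log2 level from the mean of the other pair was -0.32 over the members and -0.0060 over all genes. Its members summed to 274 CPM, next to 253, 265 and 271 CPM in WT sham, whereas replicates 2 and 3 reached 349 and 351 CPM.

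The 5 smallest ratios belonged to members that stayed below 2 CPM in every WT library. The ratio of WT IR replicate 1 to the mean of the other pair was smallest for Zbp1 (0.307), Oas3 (0.332), Mx2 (0.423), Mx1 (0.455) and Isg15 (0.496). Oas3 had 0.378, 0.337 and 0.291 CPM in WT sham and 0.187, 0.608 and 0.522 CPM in WT IR. In this gene replicate 1 lay below every sham mouse and the other pair above. Mx2 had 1.21, 1.56 and 1.57 CPM in WT sham and 0.719, 1.53 and 1.86 CPM in WT IR, and Isg15 had 0.567, 0.675 and 0.349 CPM in WT sham and 0.5, 1.08 and 0.932 CPM in WT IR. These rest on few reads, with 18 counts of Zbp1, 6 of Oas3 and 16 of Isg15 in replicate 1.

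Against the sham mice, replicate 1 exceeded all 3 of them in 15 of 39 members (38.5%), lay within their range in 19 and below it in 5. Replicates 2 and 3 exceeded all 3 sham mice in 33 and 35 members, and neither was below the sham range in any. Over all genes tested, the shares above the sham range were 31.3%, 36.7% and 38.5% for replicates 1, 2 and 3, and those below it 30.1%, 35.4% and 37.3%. The number of members whose groups did not overlap was 15 in all (38.5%; the 8 that passed with Irf1, Ddx58, Ddx60, Ifitm3, Usp18, Gbp3 and Gbp7), compared with 20.5% of all genes that were higher without overlap, and 0 members were lower without overlap (all genes 19.3%).

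**Figure D3:**
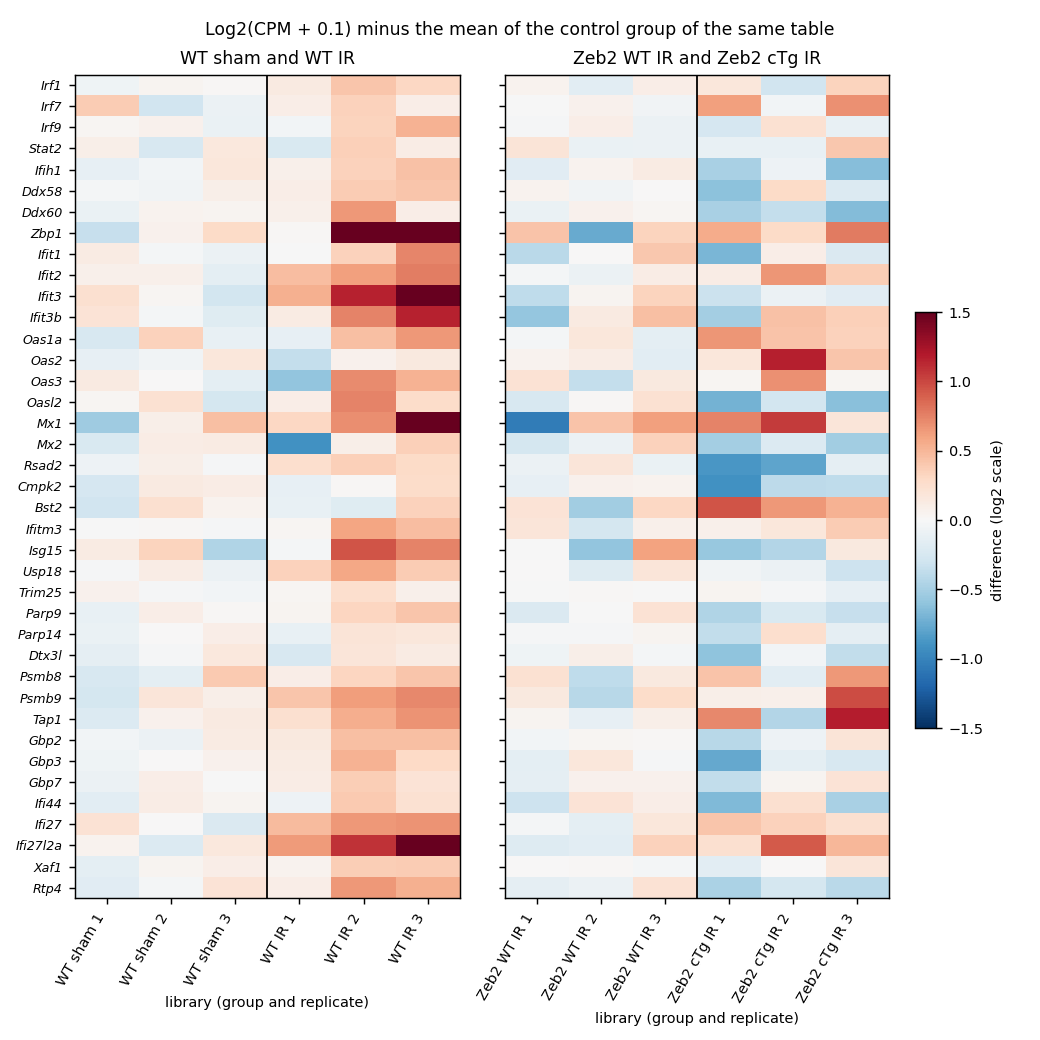
Log2(CPM + 0.1) of each member (rows) in each library (columns) minus the mean of the control group of the same table, with colours capped at 1.5 in either direction; WT sham and Zeb2 WT IR are the controls. WT IR replicate 1 is the lowest of the 3 WT IR columns in 38 of 39 members. In some rows, such as Mx2 and Oas2, it lies below the sham mean. The Zeb2 cTg IR columns hold both colours.

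WT IR replicate 1 was set apart because 38 of the 39 members were lowest in it. Leaving it out therefore raises their log2 fold changes by construction, and the calls in that fit are no separate evidence. Without WT IR replicate 1, 26 of the 39 members were higher (18.4% of all genes in that fit). The median log2 fold change of the members was 0.42, with all 39 above 0. Zbp1 then had a log2 fold change of 1.72 (adjusted p = 0.000332), Ifitm3 0.53 (adjusted p = 0.000389) and Mx1 1.43 (adjusted p = 0.0159). The sensors Ifih1 and Ddx58 and the factors Irf1 and Irf9 were among the 26, while Irf7, Stat2, Oas1a, Oas2, Oas3, Mx2, Cmpk2, Bst2, Trim25, Parp14, Dtx3l, Psmb8 and Ifi44 were not. Leaving out WT sham replicate 1, 2 or 3 gave 4, 1 and 2 members higher (5.09%, 1.64% and 4.88% of all genes), and leaving out WT IR replicate 2 or 3 gave 2 and 4 (4.17% and 7.02%).

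Some lists of cell type markers also set this library apart from the other injured mice, and others did not. The 12 macrophage and monocyte markers summed to 155 CPM in WT IR replicate 1 and to 239 and 281 CPM in replicates 2 and 3, above a range of 116 to 134 CPM in WT sham. The 9 fibroblast markers summed to 1868, 3010 and 4663 CPM in WT IR and to between 516 and 919 CPM in WT sham. The 6 B cell markers summed to 6.34, 16.5 and 15.1 CPM, and the cardiomyocyte markers to 60157, 51357 and 46860 CPM. Between the groups, 8 of the 11 macrophage and monocyte markers tested and 8 of the 9 fibroblast markers were higher in WT IR, and 4 of the 12 cardiomyocyte markers were lower. Of the other lists, 2 of 3 B cell, 2 of 6 smooth muscle and pericyte and 2 of 3 plasmacytoid dendritic cell markers tested were higher, the last list holding the member Bst2, 1 of 6 smooth muscle and pericyte and 2 of 5 erythrocyte markers were lower, and 0 of 8 endothelial markers were called. Of 12 T and NK cell markers 1 passed the filter on low counts, and Cd3d, Cd3e and Cd3g of T cells and Ly6g of neutrophils stayed under 10 counts in every library. The part of these cells in the difference of the members was not tested.

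**Figure D4:**
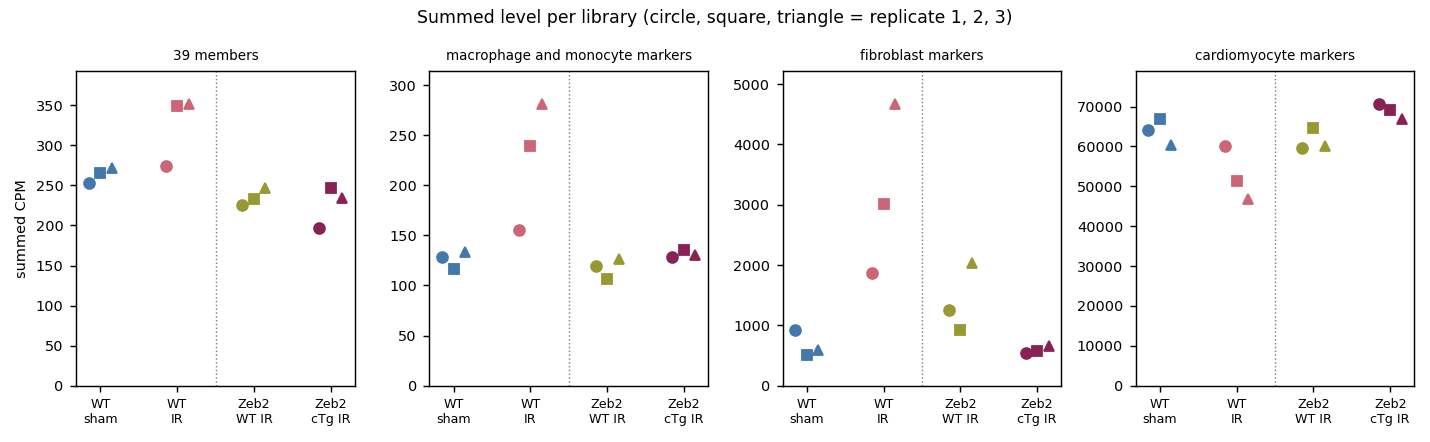
Summed CPM per library (vertical axes from 0) of the 39 members and of the macrophage and monocyte, fibroblast and cardiomyocyte markers; each point is a mouse and the dotted line separates the tables. Of the WT IR mice, replicate 1 (circle) lies nearest to the sham mice in every panel. It had 274 CPM for the members, 155 for macrophage and monocyte, 1868 for fibroblast and 60157 for cardiomyocyte markers.

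Size factors taken from the cardiomyocyte markers moved the median log2 fold change of all genes to 0.29 and that of the members to 0.60, and 20 members were then higher (20.8% of all genes). Other size factors shift the log2 fold changes of all genes by nearly the same amount. The distance between members and all genes, 0.31 under both scalings, was therefore fixed in advance and is no separate evidence.

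The genes around the group were counted in lists of interferon ligands, receptors and their kinases, upstream sensors, negative regulators and other interferon-stimulated genes, 108 genes in all. None of the 10 ligand genes found, Ifnb1, the Ifna genes and Ifng among them, exceeded 1 count in any library, and Ifnb1 was listed at 0 in all of them. Of the 94 genes tested, 74 had a log2 fold change above 0 and 20 below it, with a median of 0.23. Over all genes 50.8% lay above 0 and the median was 0.0064. Among the 60 other interferon-stimulated genes tested, 49 lay above 0 and 11 below it, with a median of 0.27, next to 0.31 for the members. Of all 94, 13 were called higher in WT IR and 1 lower, where 11% and 9.74% of all genes were. The count called higher is thus near that over all genes. The 5 with the smallest p among those higher were Ifngr1, a chain of the interferon gamma receptor (log2 fold change 0.64), the endosomal RNA sensor Tlr7 (1.16), the DNA-binding protein Ifi205 (1.20), the GTPase Ifi47 (0.89) and Ifitm2 (0.61). The gene that was lower was Mavs, the mitochondrial adaptor below the RNA sensors, with a log2 fold change of -0.38.

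The second comparison asks what Zeb2 overexpression in cardiomyocytes changes in the injured heart. Zeb2 itself had 54.7, 57.8 and 67.0 CPM in Zeb2 WT IR and 55.5, 56.9 and 58.7 CPM in the 3 libraries that carry the Zeb2 cTg IR label. The groups overlapped (log2 fold change -0.07, adjusted p = 0.750). The label of the transgenic group is therefore not borne out by the counts of its gene. The paper reports higher Zeb2 mRNA by qPCR and higher ZEB2 protein by staining in Zeb2 cTg hearts. Every direction given next is between libraries as labelled.

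None of the members was called in either direction, where 3.64% of the 13018 genes tested were called, 2.14% higher and 1.51% lower. DESeq2 also called none, where it called 4.69% of all genes higher and 2.9% lower. The filter kept 36 members, and Zbp1, Oas3 and Isg15 were not tested, with at most 11, 5 and 15 counts in any of the 6 libraries. Unadjusted p-values lay under 0.05 for 4 members higher and 6 lower, which is 11.1% and 16.7% of those tested, compared with 14% and 10.1% of all genes. The groups did not overlap in 4 members that lay higher (Oas1a, Oas2, Bst2 and Ifi27; all genes 13.4%) and in 6 that lay lower (Ddx60, Oasl2, Rsad2, Cmpk2, Parp9 and Rtp4; all genes 12.8%). The log2 fold change was above 0 in 16 of 36 members (44.4%, all genes 50.6%), and its median was -0.035 over those tested and 0.0059 over all genes.

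The members did not share a direction. Ddx60 had 9.79, 10.9 and 10.7 CPM in Zeb2 WT IR and 7.42, 8.13 and 6.63 CPM in the cTg-labelled libraries. All 3 were below all 3 controls, with a log2 fold change of -0.50 (SE 0.14, adjusted p = 0.0755), the smallest adjusted p of the members here. Size factors from cardiomyocyte markers brought the adjusted p to 0.0281 (5.06% of all genes lower in that fit).

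The neighbours Rsad2 and Cmpk2 had nearly the same difference. Cmpk2 had 4.03, 4.61 and 4.56 CPM in Zeb2 WT IR against 2.30, 3.32 and 3.34 CPM, and Rsad2 had 7.19, 8.66 and 7.10 CPM against 4.11, 4.35 and 6.91 CPM. Neither gene overlapped between the groups, though replicate 3 of Rsad2 came close to the controls, and the log2 fold changes were -0.55 (adjusted p = 0.134) and -0.57 (adjusted p = 0.156). Oasl2 had 2.93, 3.52 and 4.10 CPM against 2.10, 2.86 and 2.22 CPM, again without overlap, and a log2 fold change of -0.56 (adjusted p = 0.155). Bst2 went the other way, with 1.54, 0.890 and 1.67 CPM against 2.64, 2.14 and 1.94 CPM, no overlap, and a log2 fold change of 0.70 (adjusted p = 0.169).

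Of the 8 members higher in WT IR, 5 had a log2 fold change above 0 in the cTg-labelled libraries (Tap1 0.66, Ifi27l2a 0.57, Psmb9 0.46, Ifit2 0.39 and Ifi27 0.34) and 3 below it (Gbp2 -0.077, Ifit3 -0.23 and Rsad2 -0.57). None passed. Tap1 had 2.90, 2.59 and 3.00 CPM against 4.74, 2.06 and 6.51 CPM, so that replicate 2 lay below the controls and the others above.

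None of the remaining members passed, and their log2 fold changes are given by role. The 3 antigen processing genes lay above 0, with Psmb8 at 0.33. The sensors Ifih1 (-0.39) and Ddx58 (-0.13), the PARP9 group with Parp9 (-0.35), Dtx3l (-0.32) and Parp14 (-0.06), and Gbp3 (-0.37) and Gbp7 (-0.026) lay below it. The OAS genes were split, with Oas2 at 0.66 and Oas1a at 0.54 against Oasl2, and so were the IFIT genes, with Ifit1 at -0.28 and Ifit3b at 0.11. Among the factors, Irf7 had 0.48, Irf1 0.09, Stat2 0.08 and Irf9 -0.034, and of the rest Mx1 had 0.61, Ifitm3 0.21, Xaf1 0.022, Trim25 -0.036, Usp18 -0.18, Ifi44 -0.27, Rtp4 -0.40 and Mx2 -0.47.

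The log2 fold changes of the members lined up with the GC content of their longest transcript in this table. Spearman's rho was 0.60 across the 36 members and 0.55 across the 12892 genes with a value, which is a description across genes that share the same libraries. Of the 17 members at or above a GC content of 49.4%, 12 had a log2 fold change above 0 and the median was 0.33, while of the 19 below it 4 did and the median was -0.27. Over all genes the medians were 0.23 and -0.15. In the WT table rho was 0.10 across the members and -0.29 across all genes, and 18 of 20 members of high and 19 of 19 of low GC content lay above 0. With a correction for GC content, Ifit2 was higher in the cTg-labelled libraries (log2 fold change 0.62, adjusted p = 0.0307; 3.99% of all genes higher), and no other member was called. The part of GC content in the differences between members was not tested further.

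**Figure D5:**
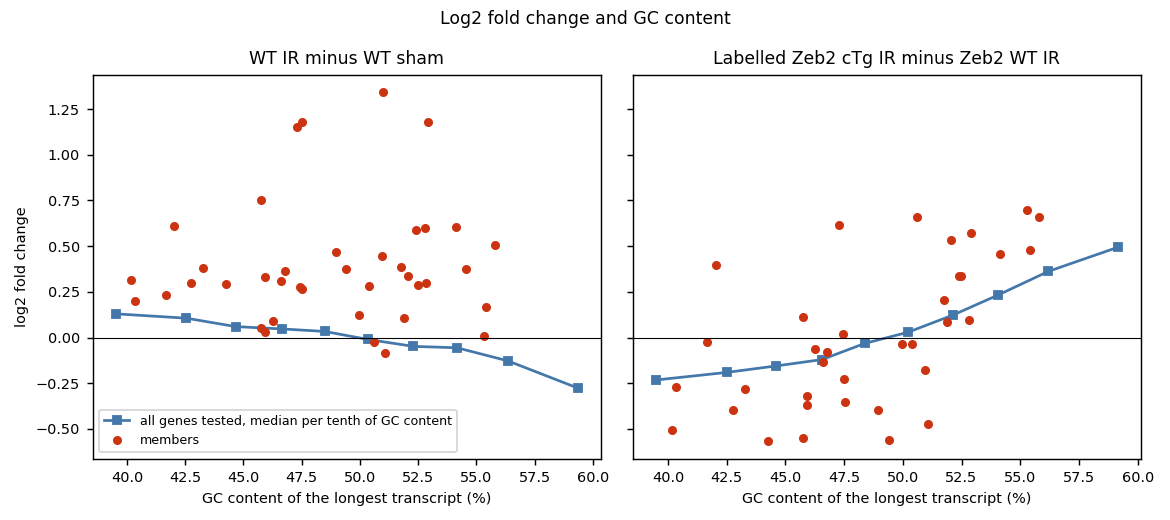
Log2 fold change (vertical axis) against the GC content of the longest transcript in % (horizontal axis) for each member tested (circles) and for all genes as the median in each of 10 bins of GC content (squares), in WT IR against WT sham (left) and in the cTg-labelled libraries against Zeb2 WT IR (right). On the right the members run along the line of all genes, with rho = 0.60 for members and 0.55 for all genes, and on the left 37 of 39 members lie above 0.

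No library of the Zeb2 table was the highest or lowest of its 3 in at least 75% of the members. The largest share was that of Zeb2 cTg IR replicate 1, lowest of its 3 in 22 of 36 members (61.1%), compared with 28.8% of all genes. Its median log2 difference from the other pair was -0.25 over the members and 0.010 over all genes, and its members summed to 197 CPM, below the 225 to 247 CPM of the other 5 libraries. Leaving out Zeb2 cTg IR replicate 2 gave 2 members higher, Tap1 and Irf7, and 4 lower, Ifih1, Ddx60, Oasl2 and Dtx3l, in a fit where 12% of all genes were higher and 6.2% lower. Leaving out any of the other 5 libraries gave none.

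The macrophage and monocyte markers summed to between 106 and 127 CPM in Zeb2 WT IR and between 129 and 136 CPM in the cTg-labelled libraries, and the fibroblast markers to between 915 and 2036 CPM and between 536 and 656 CPM. Of these, 1 macrophage and monocyte marker was higher and 1 lower, and 3 of 9 fibroblast markers were lower. The cardiomyocyte markers summed to between 59685 and 64671 CPM and between 66806 and 70544 CPM, with 2 of 12 higher. The endothelial markers summed to between 484 and 536 CPM and between 408 and 460 CPM, and the plasmacytoid dendritic cell markers, Bst2 among them, to between 98.7 and 104 CPM and between 72.9 and 78.0 CPM, in both lists without overlap and with none called. The T and NK cell markers summed to between 1.47 and 1.63 CPM and between 0.899 and 1.18 CPM, with 1 of 12 tested and none called. The sums of the B cell, neutrophil, erythrocyte and smooth muscle and pericyte markers overlapped. Of these lists, 1 of 5 smooth muscle and pericyte markers tested was higher, and no other marker was called. The part of these cells in the values of the members was not tested.

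Of the 90 genes tested in the surrounding lists, 2 were higher and 1 was lower in the cTg-labelled libraries, which is about the share over all genes (2.14% higher, 1.51% lower). Psmb10, the remaining catalytic subunit of the immunoproteasome, had 4.73, 4.01 and 4.96 CPM in Zeb2 WT IR and 15, 7.86 and 11.9 CPM in the cTg-labelled libraries (log2 fold change 1.34, adjusted p = 0.0180). Ifit1bl1, a relative of Ifit1, had a log2 fold change of 0.96 (adjusted p = 0.0249) and was also higher in WT IR. The chemokine Cxcl9, an interferon gamma target that attracts T cells, had 1.98, 2.02 and 2.17 CPM against 0.880, 0.725 and 0.365 CPM, a log2 fold change of -1.68 (adjusted p = 0.0257).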

How the data were processed

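The authors sequenced strand-specific single-end reads of 75 bp, mapped and quantified them with STAR (2.4.2a) against GENCODE M4, and deposited raw counts per gene in 2 tables. The processing notes also name HTSeq 0.6.1 and mm10. The methods name a total RNA kit and the sample records an mRNA kit. Each table was fitted on its own in R 4.3.3 with edgeR 4.0.16 (TMM, filterByExpr with a minimum count of 10 and a minimum total of 15, quasi-likelihood test in place of the DESeq of the methods, Benjamini-Hochberg adjustment over all genes tested, threshold 0.05). Symbols, positions and transcripts come from GENCODE M21, in which 36429 of 38293 identifiers have a symbol, and promoter windows from RefSeq. The mitochondrial genome took 60.6% to 73.5% of counts, which lowers the depth left for the members. Alternatives used limma-voom (3.58.1), DESeq2 1.42.0, other size factors and filters, a loess correction for GC content (span 0.5), the replicate number as a block, and each library left out in turn. The main fit of each table was also run on simulated counts, with changes larger than most of those described here. That run does not bear on the members. Groups come from the labels, and no pair of libraries was a duplicate.

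The members and lists were chosen with earlier results of these data known. Every member is named with its log2 fold change. CPM per library are given for members with an adjusted p under 0.05, for the 5 smallest p-values of a comparison, and for the 5 members that set apart a library which is the highest or lowest of its 3 in at least 75% of members. Those of Irf1 and Tap1 in the Zeb2 table were added after their values were seen. Of the other lists, at most 5 genes each way are named. Mice are separate animals per the deposited design. A gene of the surrounding lists is not reported here.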

Additional observations from a re-analysis of the deposited data

How the results depend on the processing

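In WT IR against WT sham, size factors from cardiomyocyte markers gave 20 members, 2862 genes and 36 genes of the surrounding lists higher, 228 genes and 0 list genes lower, and a member median of 0.60. They turned Oas2 to 0.27 and Mx2 to 0.23. Without a filter 13 members and 24 list genes were higher, and with DESeq2 5 members. With the GC correction 2 list genes were lower. Values near 0 turned negative for Cmpk2 (-0.0203 with GC correction, -0.026 with block and GC), Dtx3l (-0.042 and -0.050) and Bst2 (-0.017 with limma-voom, -0.00413 with the block). Leaving out 1 library gave 1 to 26 members higher and 0 lower (median 0.26 to 0.42), 226 to 2543 genes higher and 195 to 2437 lower, and 2 to 44 list genes higher and 0 to 3 lower. The values that changed sign were Bst2 (-0.17 to 0.14), Cmpk2 (-0.068 to 0.13), Dtx3l (-0.053 to 0.15), Irf7 (-0.0069 to 0.39), Mx2 (-0.33 to 0.22), Oas2 (-0.12 to 0.11) and Stat2 (-0.051 to 0.26).

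In the Zeb2 comparison, cardiomyocyte size factors gave 1 member lower (Ddx60), 171 genes higher, 659 lower, 4 list genes lower, a member median of -0.20, and Irf1 -0.071, Stat2 -0.079, Ifit3b -0.044 and Xaf1 -0.14. Without a filter 1029 genes were higher and 524 lower, and 6 and 2 list genes. DESeq2 called 635 higher and 392 lower. Same-numbered libraries did not all deviate together (correlations -0.036, 0.010 and -0.013 in the WT table, 0.142, 0.275 and -0.039 in the Zeb2 table). With so few libraries per group, these correlations cannot decide whether the numbers pair them. The replicate block gave 1 member lower (Ddx60), 1164 genes higher and 649 lower, and 5 and 2 list genes. In the WT table it gave 8 members, 1395 genes higher and 1200 lower. GC correction gave 1 member higher (Ifit2), 519 genes higher and 2 list genes lower, and with the block 1 member (Ifit2) and 547 genes higher. These last fits turned Zeb2 to 0.21 and 0.20, Irf1 to -0.0241 and -0.0334, Parp14 to 0.081 and 0.074, Gbp2 to 0.069 and 0.047, and Gbp7 to 0.23 and 0.21. Leaving out 1 library gave 0 to 2 members higher and 0 to 4 lower (median -0.09 to 0.06), 50 to 1594 genes higher and 46 to 825 lower, 0 to 8 list genes higher and 0 to 4 lower, and Zeb2 -0.13 to 0.0189. Sign changes were Ddx58 (-0.40 to 0.053), Gbp2 (-0.24 to 0.0585), Gbp7 (-0.16 to 0.11), Ifit3b (-0.15 to 0.39), Irf1 (-0.048 to 0.25), Irf9 (-0.19 to 0.057), Parp14 (-0.25 to 0.064), Stat2 (-0.12 to 0.19), Trim25 (-0.081 to 0.013) and Xaf1 (-0.076 to 0.096). The cause was not tested for any of these. How small a difference could be detected at this depth was not computed for the members.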
